A study of Danio rerio with 10 samples.

Results

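Genes whose RNA level at 2 days post-fertilization (dpf) stood apart only in homozygous *ebf3a* mutants numbered 373 of 36351 gene IDs. Of these, 244 were lower and 129 higher in homozygotes. In these genes the heterozygous and wild type (WT) siblings had similar mean levels, while single sibling libraries could differ. Zebrafish *ebf3a* encodes an ortholog of EBF3, a transcription factor of the early B cell factor (Collier/Olf/EBF) family. The mutation, made with CRISPR/Cas9 in AB zebrafish, shifts the reading frame and is predicted to truncate the protein, and all animals came from this one mutant line. Bulk RNA-seq was made from the anterior part of pooled animals, whose posterior part was used for genotyping. At 2 dpf there were 2 homozygous, 2 heterozygous and 2 WT libraries of 15 to 20 embryos each (upper body with eyes), and at 5 dpf 2 homozygous and 2 WT libraries of 10 to 12 animals each (head with eyes). The animals received no treatment, and a replicate is a pool. The titles give the later age as 5 dpf, the extraction protocol as 6 dpf. Reads counted on genes came to 30070283 to 47797511 per library at 2 dpf, where both WT libraries were the deepest, and to 36165011 to 45882083 at 5 dpf.

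EBF proteins bind DNA as dimers and switch on genes as progenitors become differentiated cells, in neurons as well as in B cells. In vertebrate embryos Ebf genes are known for their roles in the olfactory system, the retina and the cerebellum. In a recessive pattern a single functional copy keeps a transcript at the WT level, and the genes below were picked for this shape. The gene IDs are those of the Lawson Lab zebrafish annotation. None of them matched a gene name in the reference tables used here, so genes are given by ID or by their place in the order of fold, and no function is assigned to them. For the same reason the level of *ebf3a* itself, which would check the genotype labels, and the markers of the tissue were not analysed here, and no sequence is shown.

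The members were chosen on CPM, the count of a gene per 1000000 reads counted on all genes of its library. Both homozygous values had to lie below, or both above, all 4 sibling values. The homozygous mean and the mean of the 4 siblings had to differ at least 1.4-fold, the smaller of the heterozygous and WT means had to exceed 0.85 of the larger, and the larger of the homozygous and sibling means had to reach 2 CPM. A stretch of 105 consecutive IDs was left out. Both homozygous libraries were below all siblings for 2891 genes, of which 1836 reached the minimum level, 389 of these also the minimum fold and 245 also the limit on heterozygotes and WT, and 1 more gene lay in the stretch. For higher genes the same steps left 2429, 1665, 258 and 140, and 11 lay in the stretch. The limits cut through a continuous distribution. Among lower genes, the member nearest the fold limit differed 1.403-fold and the nearest gene outside it 1.399-fold. The means of heterozygotes and WT came to a ratio of 0.8504 just inside and 0.8498 just outside, and the levels to 2.01 and 1.99 CPM. Among higher genes these pairs were 1.401 and 1.399, 0.852 and 0.847, and 2.01 and 1.99 CPM. Because every 2 dpf library took part in this choice, the differences between homozygotes and siblings at 2 dpf are a description and carry no test. When 1 homozygous library was left out, fewer values had to stand apart and more genes met the rule. Without homozygous replicate 1 there were 436 lower genes, which included 176 of the 244, and 209 higher genes, which included 91 of the 129. Without homozygous replicate 2 there were 447, which included 186, and 342, which included 103. Without a heterozygous library the counts moved less but fewer of the same genes met the rule. Without heterozygous replicate 1, 158 of the 244 lower and 76 of the 129 higher genes did so, and without heterozygous replicate 2, 146 and 54. Without a WT library 180 or 182 of the lower and 96 or 87 of the higher genes did so.

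**Figure D1:**
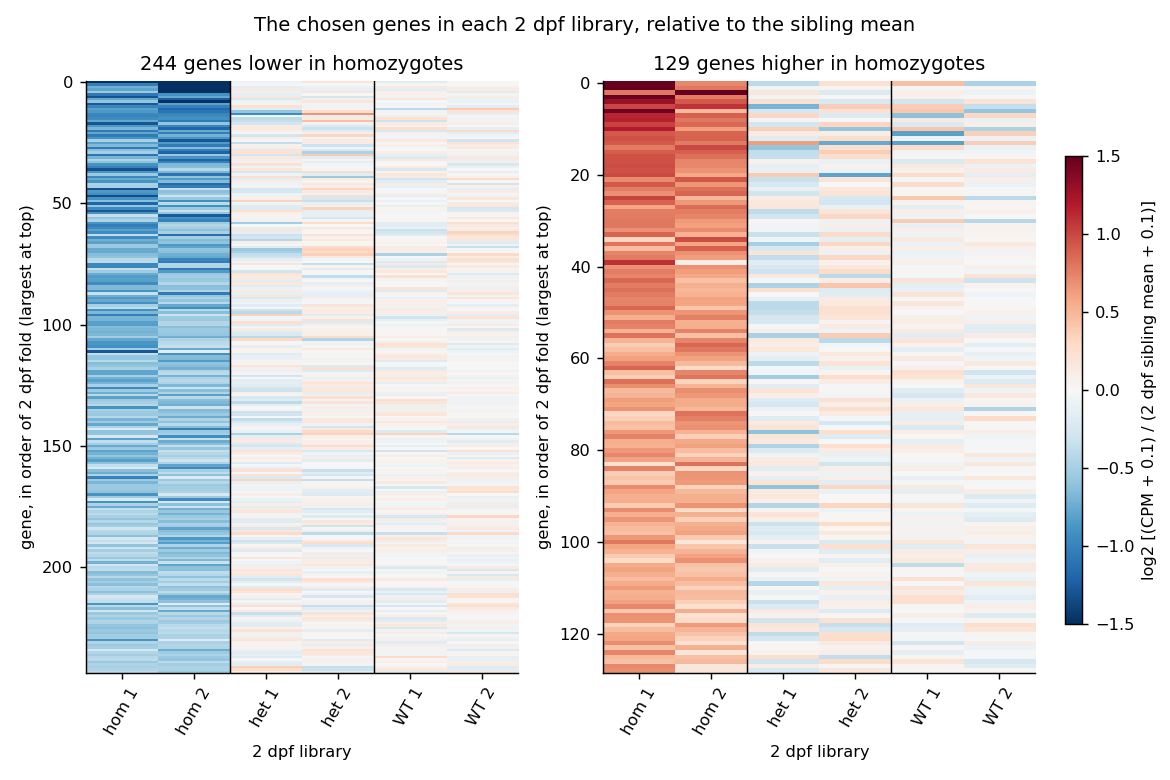
Each row is 1 gene and each column 1 of the 6 libraries at 2 dpf, with the colour giving log2 of CPM over the mean of the 4 siblings, after 0.1 CPM was added to both. The homozygous columns (hom) are coloured throughout because the rule chose them so, while heterozygous (het) and WT columns stay pale with scattered darker cells.

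**Figure D2:**
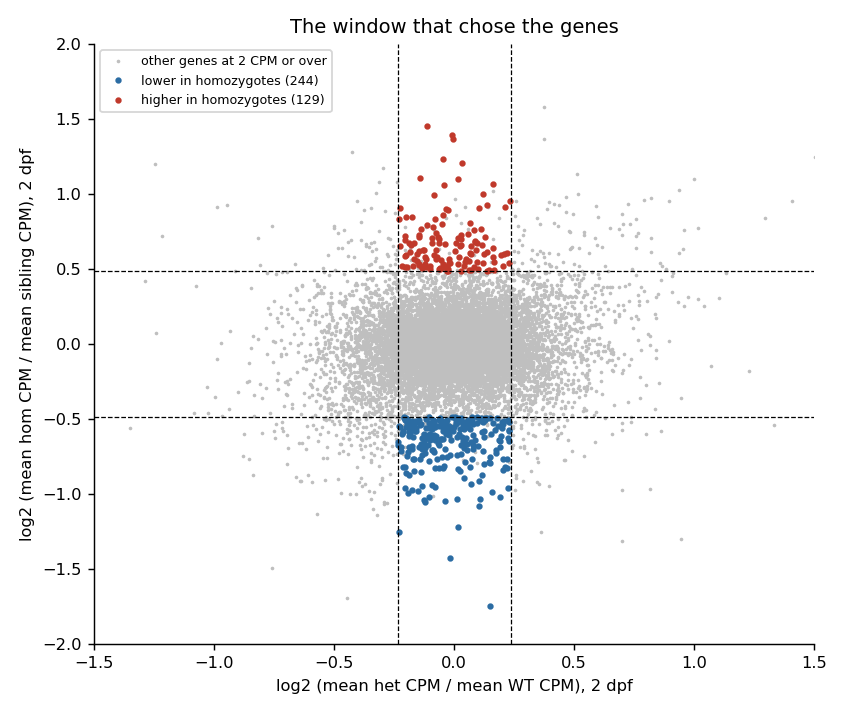
Each point is a gene with at least 2 CPM at 2 dpf, with log2 of mean heterozygous over mean WT CPM on the x axis and log2 of mean homozygous over mean sibling CPM on the y axis, and dashed lines mark the limits of the rule. The 244 lower and 129 higher genes fill the window without a gap to the other genes, of which a few lie beyond the axes.

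Most members were low to moderate in level and changed by less than 2-fold. The 244 lower genes had a median fold of 1.53 (quartiles 1.45 and 1.66) and a highest fold of 3.35, with a median sibling level of 4.44 CPM against 2.86 CPM in homozygotes. The 129 higher genes had a median fold of 1.54 (quartiles 1.45 and 1.66) and a highest fold of 2.74, with a median homozygous level of 4.90 CPM against 3.26 CPM in siblings. The fold reached 2 in 12 lower and 9 higher genes. All of these were low in level, between 2.02 and 7.16 CPM in siblings for the lower genes and between 2.06 and 4.04 CPM in homozygotes for the higher ones. On the side with the larger level, 204 of the 244 lower and 96 of the 129 higher genes were under 10 CPM, and 5 and 4 were at 100 CPM or over. At 2 CPM a homozygous library holds 60.1 or 62.8 reads on a gene, whose counting error alone is a standard deviation of 12.6% to 12.9%. In a WT library it is 86.6 or 95.6 reads and 10.2% to 10.8%. The limit of 2 CPM applies to the larger side only, so the smaller side can rest on fewer reads with a larger counting error.

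The gap between the groups was narrow for most members. The lowest sibling of a lower gene was a median of 1.22 times the higher homozygous value (range 1.00 to 2.90), and the lower homozygous value of a higher gene was a median of 1.24 times the highest sibling (range 1.01 to 1.74). Summed over the lower genes, the libraries held 3054 and 3085 CPM in homozygotes, 4379 and 4826 in heterozygotes and 4737 and 4740 in WT. Summed over the higher genes they held 1984 and 1879 CPM in homozygotes, 1048 and 1351 in heterozygotes and 1230 and 1231 in WT. The heterozygous pools thus differed more from each other than the WT pools did in both sums, and heterozygous replicate 1 had the lowest of the 4 sibling values in both. Abundant genes weigh most in these sums, such as a lower gene at 1047 CPM and a higher gene at 149 CPM in siblings. The sums need not describe most members.

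The rule held the heterozygous and WT means close but did not set which was larger. The heterozygous mean was below the WT mean in 140 of the 244 lower genes (57.4%) and in 75 of the 129 higher genes (58.1%), against 50.6% of the 12679 genes at this level and within this ratio. Heterozygotes were therefore on the homozygous side of WT in 57.4% of the lower genes but in 41.9% of the higher genes. The sibling nearest to the homozygotes was heterozygous replicate 1 for 101 of the lower genes (41.4%), and this library was the lowest sibling in 37.0% of the 12679 genes. Heterozygous replicate 2 was nearest for 25.4% of the lower genes (lowest sibling in 19.9%), WT replicate 1 for 17.6% (19.7%) and WT replicate 2 for 15.6% (23.4%). For the higher genes heterozygous replicate 2 was nearest in 48 (37.2%), and it was the highest sibling in 33.6% of the 12679 genes. There WT replicate 1 was nearest for 27.1% (highest sibling in 24.7%), heterozygous replicate 1 for 20.9% (22.0%) and WT replicate 2 for 14.7% (19.8%). For the lower genes both heterozygous libraries were above and both WT libraries below their background shares. For the higher genes heterozygous replicate 2 and WT replicate 1 were above and the others below. The sibling values took part in the choice of members, so all these shares are a description. The 12679 genes were not matched to the members on level, and 204 of the 244 lower genes were under 10 CPM. Both heterozygous libraries held fewer reads (34661012 and 32558436) than both WT libraries (43284327 and 47797511). The part that level and depth have in these shares was not tested. Between the homozygous pools, replicate 1 was the lower one for 129 of the 244 lower genes and for 46 of the 129 higher genes.

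Homozygotes were compared with the pooled siblings over all genes by edgeR's quasi-likelihood test, which models counts with a spread shared across genes, with Benjamini-Hochberg adjustment. An adjusted p under 0.05 was reached by 34 of the 244 lower genes (13.9%), where 0.268% of the 22383 genes tested were called lower, and by 24 of the 129 higher genes (18.6%), where 0.398% were called higher. The rule used this contrast, so nothing is read from these counts. Of the 60 genes called lower in all, 56.7% were members, and of the 89 called higher, 27.0%. Without homozygous replicate 1, fewer members and fewer genes in all were called. Without WT replicate 1, 20 lower members were called, and without WT replicate 2, 19. Over all genes and both directions these fits called 85 and 87 genes, against 149 with every library.

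The largest folds at 2 dpf belonged to LL0000011493 and LL0000014655 among lower genes and to LL0000026458 and LL0000018872 among higher genes. LL0000011493 was at 0.698 and 0.732 CPM in homozygotes, 2.28 and 2.76 CPM in heterozygotes and 2.13 and 2.43 CPM in WT, which is 21 and 23 reads in the homozygous libraries and 79 to 116 reads in the siblings. The homozygous pools were alike and far from every sibling, with means of 0.715 ± 0.0237 CPM (SD, n = 2) and 2.40 ± 0.273 CPM (SD, n = 4), a 3.35-fold difference. At 5 dpf it was at 0.337 and 1.16 CPM in homozygotes and at 2.81 and 2.75 CPM in WT. Homozygotes and WT did not overlap at 5 dpf, whereas at 2 dpf the rule required homozygotes to stand apart. The 5 dpf difference was -1.92 on the log2 scale (standard error 0.57), but it did not pass the adjustment over all genes (adjusted p = 1.00, edgeR's quasi-likelihood test), and it ranged from -3.02 to -1.28 when single 5 dpf libraries were left out.

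LL0000014655 was at 1.097 and 0.636 CPM in homozygotes, 2.28 and 2.36 CPM in heterozygotes and 2.36 and 2.34 CPM in WT. Its siblings were nearly equal, at 2.34 ± 0.0389 CPM (SD, n = 4), and the homozygotes lower by 2.69-fold at 0.867 ± 0.326 CPM (SD, n = 2). By 5 dpf it had 2.43 and 2.35 CPM in homozygotes and 2.21 and 2.38 CPM in WT. These values overlapped (log2 fold change 0.04, standard error 0.29, adjusted p = 1.00, edgeR's quasi-likelihood test), so no difference between genotypes was seen at this age. With 2 libraries per genotype this does not show the gene to be unchanged.

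LL0000026458 was at 3.09 and 1.43 CPM in homozygotes, 0.606 and 0.983 CPM in heterozygotes and 1.16 and 0.565 CPM in WT. Its homozygous pools differed by more than the second of them did from the highest sibling. At 5 dpf it was at 3.10 and 4.45 CPM in homozygotes and 3.44 and 5.54 CPM in WT, above the 2 dpf siblings in all 4 libraries and overlapping between genotypes (log2 fold change -0.26, standard error 0.34, adjusted p = 1.00, edgeR's quasi-likelihood test).

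LL0000018872 was at 3.92 and 2.04 CPM in homozygotes against 1.096 and 1.17 CPM in heterozygotes and 1.11 and 1.17 CPM in WT. The 4 siblings varied by far less (1.14 ± 0.0389 CPM, SD, n = 4) than the homozygotes (2.98 ± 1.33 CPM, SD, n = 2). Later, at 5 dpf, it was at 1.78 and 3.46 CPM in homozygotes and 2.06 and 4.25 CPM in WT, so that replicate 2 was the higher library in both genotypes and the genotypes overlapped (log2 fold change -0.29, standard error 0.47, adjusted p = 1.00, edgeR's quasi-likelihood test). The fitted 5 dpf difference of LL0000026458 turned positive without WT replicate 2 (0.13), and that of LL0000018872 without homozygous replicate 1 (0.11) or without WT replicate 2 (0.34). Those fits have no replicate term, and leaving out a library leaves the replicate numbers unbalanced between genotypes. Within each replicate number both genes were lower in homozygotes than in WT. With every library and the replicate number as a block their differences were -0.25 and -0.27 (standard errors 0.22 and 0.25).

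**Figure D3:**
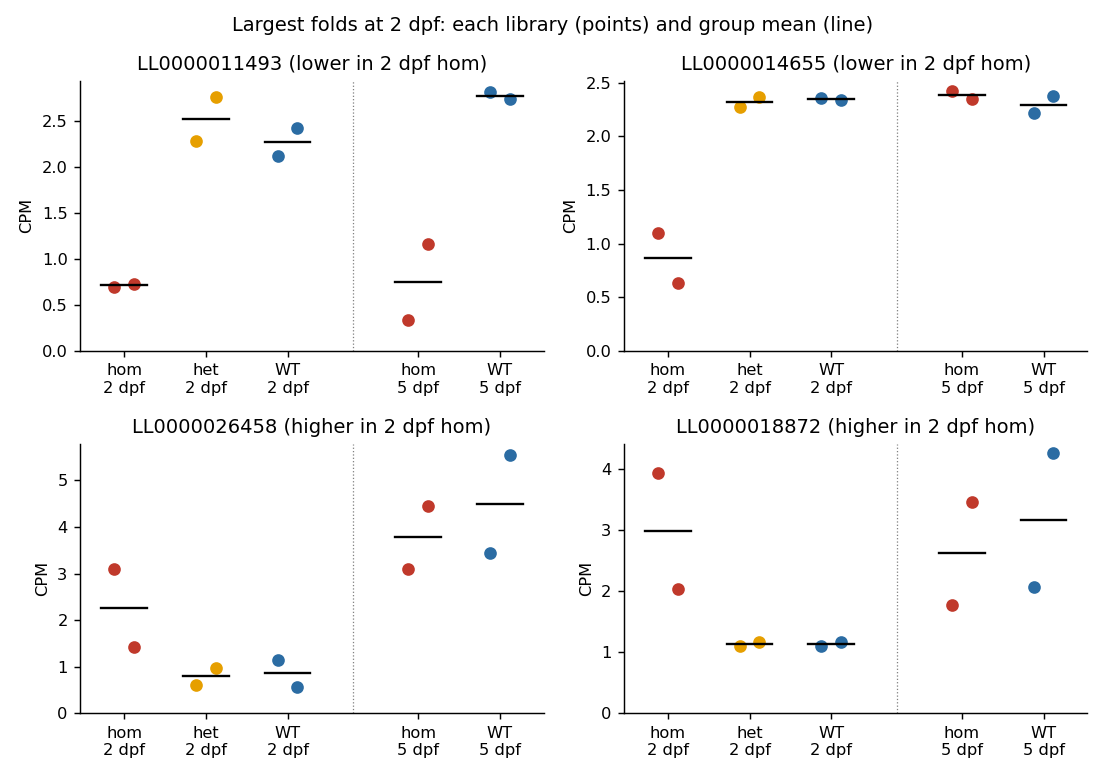
CPM of the 4 genes with the largest folds at 2 dpf, 1 point per library and a line at the mean of each group of 2. Only LL0000011493 keeps homozygotes (0.337 and 1.16 CPM) below WT (2.81 and 2.75 CPM) at 5 dpf.

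The members at 100 CPM or over at 2 dpf are those whose values rest on the most reads. Among the 5 lower ones, the most abundant (place 207 of 244 by fold) was at 729.7 and 733.1 CPM in homozygotes, 948.3 and 1159 CPM in heterozygotes and 1048 and 1032 CPM in WT. At 5 dpf it was at 1077 and 1476 CPM in homozygotes and 1555 and 2620 CPM in WT. Homozygotes and WT thus did not overlap at 5 dpf, although the WT libraries differed widely. The next (place 167) was at 470.8 and 470.4 CPM in homozygotes, 664.4 and 701.7 CPM in heterozygotes and 690.2 and 709.5 CPM in WT, and at 5 dpf at 2181 and 2192 CPM in homozygotes and 2956 and 3063 CPM in WT. It had the closest replicates of the 5 at 5 dpf, and its log2 fold change was -0.47 (standard error 0.17).

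The lower gene at place 15 by fold was at 173.7 and 178.9 CPM in homozygotes, 340.1 and 319.8 CPM in heterozygotes and 372.8 and 359.0 CPM in WT, a 1.97-fold difference. At 5 dpf its level was below that of 2 dpf in both genotypes, at 79.6 and 71.4 CPM in homozygotes and 156.8 and 128.6 CPM in WT, and its log2 fold change was -0.93 (standard error 0.18). Its 5 dpf difference was thus about as large as at 2 dpf, where log2 of the ratio of means was -0.98, and it stayed between -1.06 and -0.77 when single libraries were left out. The gene at place 152 was at 236.7 and 233.2 CPM in homozygotes, 317.2 and 374.5 CPM in heterozygotes and 350.0 and 349.4 CPM in WT, and at 5 dpf at 2204 and 2248 CPM in homozygotes and 2959 and 3744 CPM in WT. Its ID is 2 away from that of the gene at place 167, and reads shared between near-identical or overlapping genes could not be checked. The gene at place 96 was at 208.4 and 213.8 CPM in homozygotes, 251.6 and 358.6 CPM in heterozygotes and 356.3 and 361.2 CPM in WT, so that heterozygous replicate 1 stood near the homozygotes. At 5 dpf it overlapped between genotypes, at 51.9 and 71.8 CPM in homozygotes and 58.2 and 105.5 CPM in WT.

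In 4 of these 5 genes both 5 dpf homozygous libraries were below both WT libraries, a placement that 9.70% of all genes tested at 5 dpf and 7.69% of those with at least 2 CPM at 2 dpf had. Each of the 4 had a negative log2 fold change in each fit that left out 1 library. None passed the adjustment over all genes in the fit without a replicate term (adjusted p = 1.00 for each, edgeR's quasi-likelihood test). The gene at place 15 passed in the fit with the replicate number as a block, which is given in the closing section. The 5 genes were grouped by level after their values were known, so the count of 4 is not evidence on the other members.

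The 4 higher genes at 100 CPM or over had another pattern at 5 dpf. The most abundant (place 29 of 129 by fold) was at 252.5 and 253.6 CPM in 2 dpf homozygotes, 114.1 and 168.8 CPM in heterozygotes and 156.5 and 155.1 CPM in WT. At 5 dpf it was at 68.0 and 127.9 CPM in homozygotes and 110.6 and 57.5 CPM in WT. The gene at place 121 was at 209.3 and 190.4 CPM in 2 dpf homozygotes, 108.8 and 168.0 CPM in heterozygotes and 143.1 and 146.1 CPM in WT, and at 5 dpf at 77.4 and 103.8 CPM in homozygotes and 124.0 and 53.9 CPM in WT. In both, heterozygous replicate 1 was the lowest and heterozygous replicate 2 the highest sibling, and at 5 dpf homozygous replicate 2 and WT replicate 1 were the high libraries.

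The genes at places 51 and 16 showed the same arrangement. The former was at 161.3 and 159.1 CPM in 2 dpf homozygotes, 78.5 and 118.3 CPM in heterozygotes and 100.6 and 105.2 CPM in WT, and at 5 dpf at 199.6 and 245.1 CPM in homozygotes and 302.2 and 127.2 CPM in WT. The latter was at 118.0 and 117.0 CPM in 2 dpf homozygotes, 48.8 and 81.3 CPM in heterozygotes and 59.9 and 61.2 CPM in WT, and at 5 dpf at 52.5 and 102.1 CPM in homozygotes and 96.2 and 51.4 CPM in WT. The 5 dpf genotypes overlapped in all 4 genes, with fitted log2 fold changes between 0.00 and 0.20 and standard errors of 0.39 to 0.40. When single 5 dpf libraries were left out the sign varied in each, from -0.29 to 0.77 for place 29, -0.46 to 0.75 for place 121, -0.45 to 0.81 for place 51 and -0.48 to 0.59 for place 16. By these values alone, the 4 genes varied together between heterozygous pools at 2 dpf and between pools of each genotype at 5 dpf. At 2 dpf the homozygous pools differed less from each other than the heterozygous ones, and so did the WT pools. That the 4 genes varied together was seen after the values were known and was not tested.

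**Figure D4:**
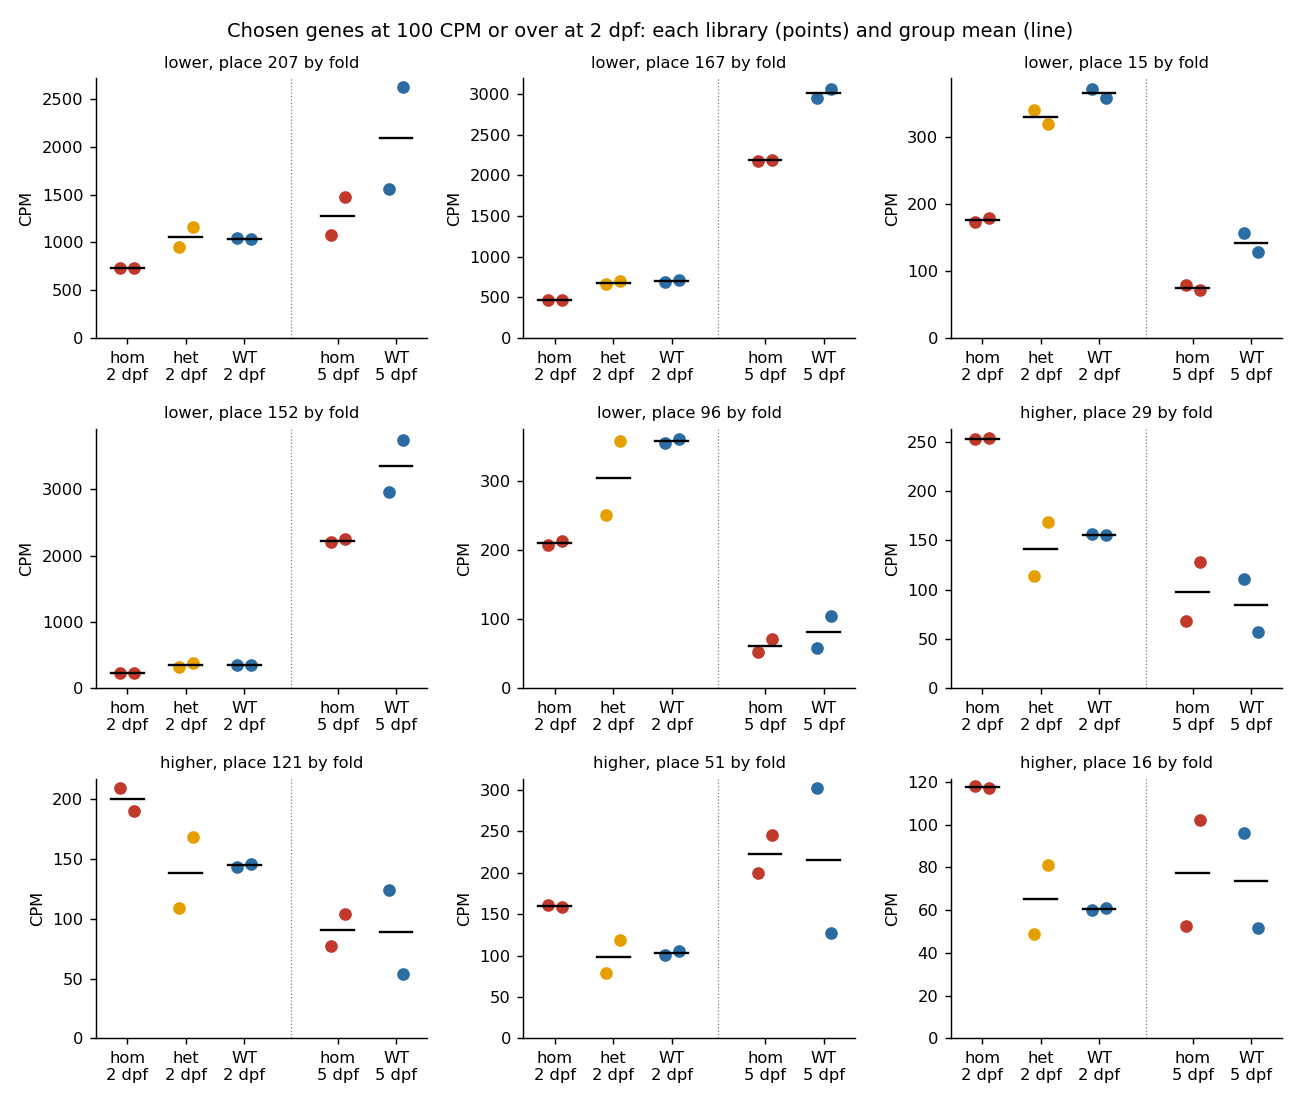
CPM of the 9 members at 100 CPM or over at 2 dpf, 1 point per library and a line at the mean of each group of 2, from y axes that start at 0. In 4 of the 5 lower genes the 5 dpf homozygotes stay below WT, while in the 4 higher genes the 5 dpf points of the genotypes interleave.

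Across all members, 5 dpf levels covered a wide range. The median WT level of the lower genes was 8.55 CPM at 5 dpf (quartiles 3.98 and 19.7) and 8.35 CPM in homozygotes. For the higher genes these medians were 5.93 CPM in WT (quartiles 3.46 and 14.5) and 6.43 CPM in homozygotes. WT at 5 dpf was at least 2 times as high as WT at 2 dpf for 104 of the 244 lower genes (42.6%) and 58 of the 129 higher genes (45.0%), against 20.2% of the 16121 genes with at least 2 CPM at 2 dpf. It was at most 0.5 of the 2 dpf level for 11.5% of the lower and 7.75% of the higher genes, against 17.2%. Much of this went with level. Among genes between 2 and 10 CPM at 2 dpf, WT was at least 2 times as high at 5 dpf in 42.6% of the 204 lower and 53.1% of the 96 higher members, against 38.9% of all genes of that level. At 10 CPM or over it was in 17 of 40 lower members (42.5%) and in 7 of 33 higher members (21.2%), against 9.78%. Of the 17, those at places 24, 36, 50, 118 and 230 by fold have IDs close to one another, with WT rises of 14.5 to 54.7 times. Whether these genes share reads could not be checked, so they may not count as separate genes. The 2 dpf WT values took part in the choice of members, and age cannot be told apart from the labelled tissue and the pool size, so these shares are a description.

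A few members were almost confined to 1 age. The lower gene at place 60 was at 1.57 CPM in homozygotes and 2.62 CPM in siblings at 2 dpf, and at 517.2 and 833.5 CPM in homozygotes and 504.4 and 645.0 CPM in WT at 5 dpf. The lower gene at place 161 went the other way, from 13.6 CPM in homozygotes and 20.1 CPM in siblings to 0.144 and 0.221 CPM in homozygotes and 0.234 and 0.349 CPM in WT. With 5 other lower genes and 1 higher gene it was too low at 5 dpf to pass edgeR's filter on low counts, which left 238 of the 244 lower and 128 of the 129 higher genes for the 5 dpf test. One of the 5, at place 144, had no count in any 5 dpf library.

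The 5 dpf libraries took no part in the choice of members, so the comparison of homozygotes with WT at that age could be tested. The fits here have no term for the replicate number. One with such a term, which called the lower gene at place 15 by fold, is given in the closing section. By edgeR's quasi-likelihood test without this term no member was called, with an adjusted p under 0.05 as the limit, nor was any of the 23654 genes tested (0.00%). With 2 libraries per genotype, a gene not called is not shown to be unchanged. An unadjusted p under 0.05 was reached by 7 of the 238 lower genes (2.94%), all lower in homozygotes, where 0.854% of all genes tested were lower at this limit. Among the 128 higher genes 2 were higher (1.56%) and 1 was lower (0.781%) in homozygotes, where 0.321% and 0.854% of all genes were. Among the 16075 genes tested that also had at least 2 CPM at 2 dpf, as the members have, 0.460% were lower and 0.230% higher. DESeq2's Wald test called 2 genes, neither of them a member. It placed 7 lower genes and 1 higher gene under an unadjusted p of 0.05, each in its 2 dpf direction. With DESeq2's test 0.643% of all genes tested were lower and 0.237% higher at this limit. The 7 lower genes became 4 without homozygous replicate 1 (0.383% of all genes tested were then lower at this limit), 34 without homozygous replicate 2 (4.31%), 14 without WT replicate 1 (1.34%) and 2 without WT replicate 2 (0.462%). For the higher genes that were higher at this limit the 2 became 4 without homozygous replicate 1 (0.729% of all genes tested), 8 without WT replicate 1 (0.697%) and 1 without WT replicate 2 (0.388%). The 1 higher gene that was lower became 0 without homozygous replicate 1, 7 without homozygous replicate 2 and 2 without WT replicate 2.

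The lower genes leaned toward lower levels in 5 dpf homozygotes by a small amount. Their fitted log2 fold change was below 0 for 162 of 238 (68.1%), against 52.0% of all genes tested, with a median of -0.10 (quartiles -0.27 and 0.04) against -0.01 (quartiles -0.16 and 0.11) over all genes. Without homozygous replicate 1 the median of the lower genes was 0.01 and without WT replicate 2 it was 0.06. Without homozygous replicate 2 it was -0.25 and without WT replicate 1 it was -0.21. These fits have no replicate term, and leaving out a library leaves the replicate numbers unbalanced between genotypes. With every library and the replicate number as a block the median was -0.12. Of the higher genes 64 of 128 were above 0, with a median of -0.0043 (quartiles -0.18 and 0.17). This too moved with single libraries, to a median of 0.058 with 62.0% above 0 without homozygous replicate 1 and of -0.13 with 36.4% above 0 without homozygous replicate 2. Without WT replicate 1 or 2 the median was 0.056. Both homozygous libraries were below both WT libraries for 27 of the 238 lower genes (11.3%), where 9.70% of the genes tested and 7.69% of those with at least 2 CPM at 2 dpf were so placed. Both were above for 15 (6.30%), where the backgrounds were 11.3% and 12.1%. For the 128 higher genes both were above for 13 (10.2%) and below for 7 (5.47%). Dropping a library leaves fewer values to separate and raised all these counts. The 27 became 47 without homozygous replicate 1, where 21.9% of all genes tested were so placed, 131 without homozygous replicate 2 (35.4%), 119 without WT replicate 1 (34.3%) and 55 without WT replicate 2 (26.5%).

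At 5 dpf the libraries parted by replicate number before genotype. The first principal component held 71.0% of the variance, with both replicate 1 libraries at positive scores (25.6 and 14.0) and both replicate 2 libraries at negative scores (-13.3 and -26.3). Replicate 2 exceeded replicate 1 in both genotypes for 136 of the 238 lower genes (57.1%) and 45 of the 128 higher genes (35.2%), with a background of 37.9%. Replicate 1 exceeded replicate 2 in both genotypes for 19.3% and 20.3%, with a background of 31.8%. Values within a replicate number are therefore given as well, although the labels do not say what the number stands for. Homozygotes were below WT for 65.5% of the lower genes in replicate 1 and for 59.2% in replicate 2, where the shares of all genes tested were 51.7% and 48.1%, and those of genes with at least 2 CPM at 2 dpf were 48.4% and 46.5%. They were below WT in both replicates for 97 genes (40.8%), with backgrounds of 25.7% and 23.4%. The median log2 ratio of homozygotes to WT, with 0.5 CPM added to both, was -0.15 in replicate 1 and -0.07 in replicate 2.

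For the higher genes the replicates went opposite ways. Homozygotes were below WT for 58.6% of them in replicate 1 and for 38.3% in replicate 2, with median log2 ratios of -0.12 and 0.09. The ends of the list lay furthest apart. In replicate 1, 1 in 10 genes was below -0.80, and in replicate 2, 1 in 10 was above 0.94. The same limits over all genes tested were -0.42 and 0.31. These ends held some of the same genes, and the higher genes at places 17 and 13 by fold lay beyond both limits. The former was at 31.3 and 99.8 CPM in homozygotes and 78.8 and 45.3 CPM in WT. How many genes lay at both ends was not counted. Homozygotes were above WT in both replicates for 30 of the 128 genes (23.4%), with backgrounds of 25.9% over all genes tested and 28.5% over those with at least 2 CPM at 2 dpf. In pooled tissue, fewer cells of a type and less RNA per cell cannot be told apart at either age. The part that depth, pool or replicate number has in these differences was not tested.

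**Figure D5:**
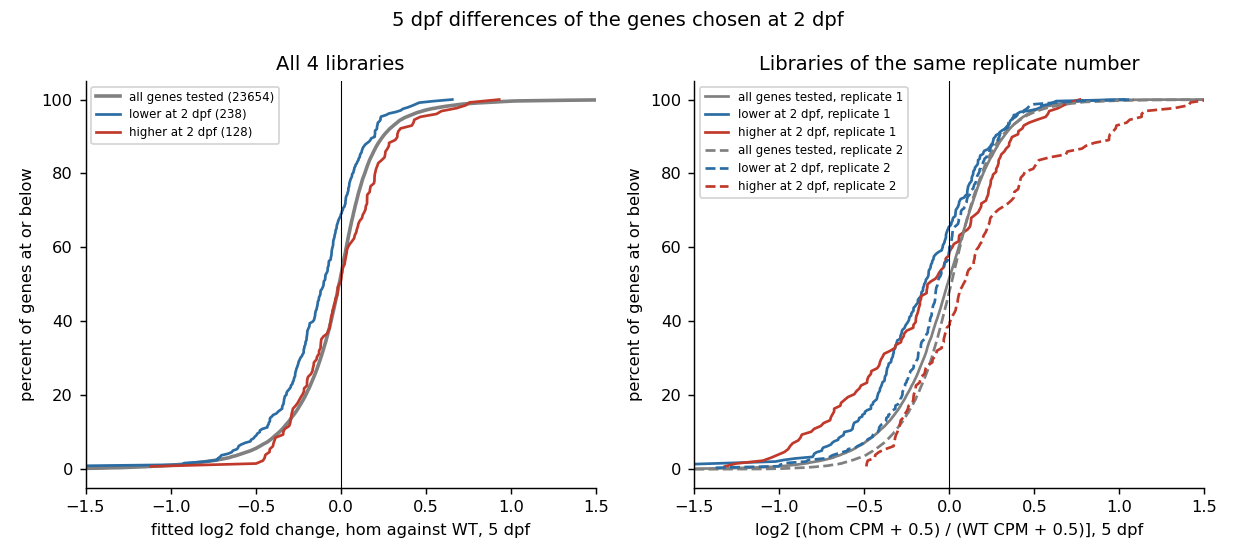
Cumulative share of genes (y axis, percent) at or below a given log2 difference of homozygotes against WT at 5 dpf (x axis), fitted over all 4 libraries on the left and within each replicate number on the right. The lower genes lie slightly to the left of all genes tested (median -0.10 against -0.01), while the higher genes split, with medians of -0.12 in replicate 1 and 0.09 in replicate 2.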

How the data were processed

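Whole counts per gene ID, not normalized, were deposited for each library, and had been obtained by the authors from STAR alignments to zebrafish genome build GRCz11, using gene models of the Lawson Lab. Per the labels the STAR version was 2.7.3a. Whether counting used strand is not given in the sources used here, so genes overlapping on opposite strands are uncertain. The members and lists were chosen with earlier results of these data known. Tests used edgeR 4.0.16 in R 4.3.3 (TMM scaling, filterByExpr, quasi-likelihood test, Benjamini-Hochberg adjustment over all genes tested). Homozygotes were compared with pooled siblings at 2 dpf and with WT at 5 dpf, fitted apart and without a replicate term. Each standard error given is the size of the log2 fold change over the square root of the test's F statistic. It restates the test and is not a separate estimate of spread. On simulated data with changes of at least 2-fold, these fits recovered a smaller share of the changed genes at 5 dpf than at 2 dpf. Most members changed by less, 5 dpf had fewer libraries, and the simulated libraries shared no replicate effect. The share of members that could be detected was thus not estimated. The labels do not say whether pools came from separate clutches, and p-values measure only the spread between pools, with 2 per genotype. At 2 dpf this spread also holds the difference between heterozygotes and WT, which were pooled in the fit. Replicate libraries differed by more than sampling noise (chi-square per degree of freedom 7.17 to 53.2). Genes named by ID were the 2 lower and 2 higher members with the largest fold. Marker lists could not be used without gene names. Alternatives were other scalings, DESeq2 1.42.0, other filters and limits, a replicate block, and leaving out each library.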

Additional observations from a re-analysis of the deposited data

Results flagged for a closer look

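Among the abundant members, heterozygous replicate 1 stood far from the other siblings for the lower gene at place 96 by fold, at 251.6 CPM against 356.3 to 361.2 CPM, a gap of 0.956 of the range of the 4 siblings. These values had taken part in the choice of members, so the gap is a description, and the usual limit and chance rate of Dixon's test do not hold for it. At 5 dpf, 15 of the 238 lower members (6.30%) had both homozygous libraries above both WT libraries, the opposite of 2 dpf, where 11.3% of all genes tested and 12.1% of those with at least 2 CPM at 2 dpf were so placed. Of the 128 higher members 7 (5.47%) had both below, where 9.70% and 7.69% of these genes did. Both shares are below their backgrounds. The differences between ages were not tested, since the rule had used the 2 dpf contrast.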

How the results depend on the processing

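The number of members follows the limits. With a fold of at least 1.3 there were 400 lower and 256 higher genes, with 1.6 there were 83 and 44, with heterozygous and WT means within 0.95 there were 81 and 49, and with a minimum of 5 CPM there were 116 and 63. Leaving out single 2 dpf libraries gave 196 to 447 lower and 110 to 342 higher genes. Called members at 2 dpf came to 58 lower and 43 higher with DESeq2's Wald test and to 57 and 46 with every gene of at least 1 count, and without single libraries to 8 to 40 and 9 to 27. With the replicate number as a block, 25 lower and 21 higher members were called at 2 dpf. Calls over all genes in both directions moved too, so these counts do not show a change particular to the members. Of 22383 genes tested, 149 were called with every library and no block, 293 with DESeq2 and 102 with the block. Every gene of at least 1 count gave 360 of 30434. Leaving out heterozygous replicate 1 or 2 gave 259 and 137 in all, and leaving out WT replicate 1 or 2 gave 85 and 87. At 5 dpf the block called 1 lower member, the one at place 15 by fold (adjusted p = 0.0150, edgeR's quasi-likelihood test; 1.00 without the block), and none of the other members. With the block an unadjusted p under 0.05 was reached by 36 lower members that were lower and 3 that were higher in homozygotes, and by 5 higher members that were higher and 6 that were lower, where 5.06% of all genes tested were lower and 2.04% higher. In all, the block called 10 of the 23654 genes tested. The labels do not say whether the numbers pair libraries. Deviations of same-numbered libraries correlated by 0.61 at 5 dpf and by -0.05 to -0.03 at 2 dpf. For higher members, DESeq2 gave 1 in their own direction and 0 in the other at this limit, against 0.237% and 0.643% of all genes tested. Every gene with at least 1 count gave 0 in the other direction, against 0.875% of all genes tested. Without single 5 dpf libraries, 2 to 34 lower members were lower at this limit and 0 to 1 were higher, while 1 to 8 higher members were higher and 0 to 7 were lower. The median log2 fold change of the lower members ranged from -0.25 to 0.062. It changed sign without homozygous replicate 1 (0.013) and without WT replicate 2 (0.062), in fits without the block. With the block and every library it was -0.12. Non-overlap counts ranged without single libraries from 47 to 131 (below WT) and 43 to 63 (above) for the 238 lower members. For the 128 higher members they ranged from 13 to 48 and from 30 to 47. Of all 23654 genes tested, 5191 to 8365 were below WT and 6616 to 8211 above with the same libraries left out. The share of lower members above WT was under that of all genes each time. The other shares of members lay on both sides of those of all genes. The other alternatives stayed within 1.5 times the reported count. An arm left with 1 library is assumed to vary like the other. A level of 2 CPM, the limit on the larger side, is 60.1 to 95.6 reads per 2 dpf library. The smaller side of a member near this limit rests on fewer reads, such as 21 and 23 in the homozygous libraries for LL0000011493.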
